A study of Mus musculus with 6 samples.

Results

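The transcriptome of unsorted lung cells from BLM-treated mice was compared with those of the Lamp1-enriched and Lamp1-depleted cells sorted from the same kind of suspension. These are 3 of the 6 libraries of the series, and genes with at least 10 reads in the BLM unsorted library were described, 20534 of the 49315 genes in the count table. BLM mice were C57BL/6 animals that received bleomycin sulfate by oropharyngeal instillation, and sham mice were C57BL/6 animals that received sterile saline by the same route. The sample labels give this strain name, and the methods of the paper give male C57BL/6J mice. Each treatment gave 1 unsorted, 1 Lamp1-depleted and 1 Lamp1-enriched library, from pooled lungs of several mice of a group, so that the libraries carry no information on differences between animals. Sorted cells had been separated by Lamp1 on the cell surface.

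Lamp1 is a heavily glycosylated protein of the lysosomal membrane that reaches the cell surface when lysosomes fuse with the plasma membrane. Bleomycin breaks DNA and injures the alveolar epithelium, after which monocytes enter the lung and mature into macrophages rich in lysosomes that line scarred regions, while resident alveolar macrophages clear surfactant from the air spaces.  If the unsorted library held only the cells of both sorted libraries, the share of each gene in all RNA would lie between its shares in the sorted libraries, and the comparison asks which genes lay above, between or below.

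Counted reads numbered 39728284 in the BLM unsorted, 30236120 in the Lamp1-depleted and 52918696 in the Lamp1-enriched library. In the Lamp1-depleted library 38.4% of reads fell on Gm26917, an annotated gene in the ribosomal RNA repeat, against 7.10% in the unsorted and 1.53% in the Lamp1-enriched library, so that 18636423 reads of the Lamp1-depleted library lay elsewhere. Levels are CPM on library sizes scaled with TMM factors from all 6 libraries, and ratios as log2 of the unsorted level over a sorted level. Each library is a single measurement, so there is no replicate error and no p-value, and the 95% Clopper-Pearson intervals cover counting error only. A gene was placed above both sorted libraries when both ratios were at least 1 (2-fold), below both when both were -1 or lower, and between them when the ratios differed in sign. Of 20534 genes, 1919 (9.35%) lay at least 2-fold above both, 4060 (19.8%) lay above both by less, 11326 (55.2%) lay between, 3138 (15.3%) lay below both by less than 2-fold, and 91 (0.443%) lay at least 2-fold below both. Both counting intervals lay above 0 for 3545 genes (17.3%) and below 0 for 1497 (7.29%). These counts depended on the scaling, at 4249 and 671 with total counts only. They were 2721 and 2554 with the median log2 ratio of all genes set to 0, an alternative chosen after seeing the data. The median log2 ratio of all genes tested was 0.028 over Lamp1-enriched and 0.41 over Lamp1-depleted cells. The 1919 genes above both took 11.1% of the unsorted reads, 1.54% of the Lamp1-depleted reads and 2.31% of the Lamp1-enriched reads; of reads outside Gm26917 they took 11.9%, 2.49% and 2.34%. Their excess over the higher sorted library amounted to 8.46% of the unsorted reads.

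**Figure D1:**
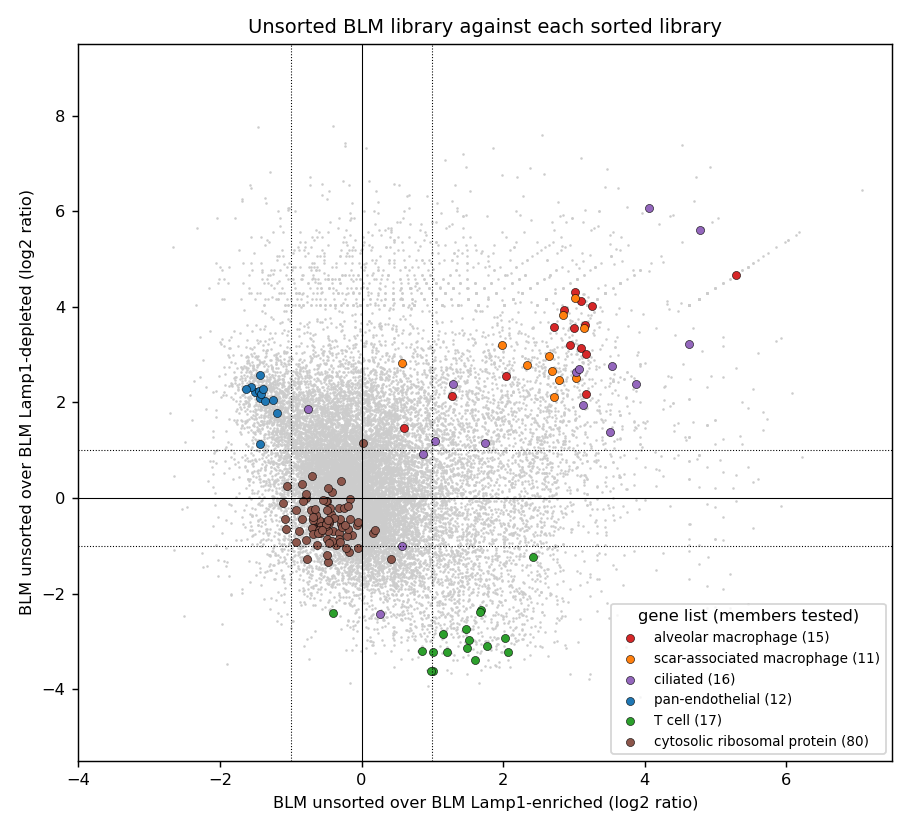
Each grey point is 1 of 20534 genes, with the log2 ratio of BLM unsorted over Lamp1-enriched cells on the x axis and over Lamp1-depleted cells on the y axis, and coloured points are members of 6 gene lists. Dotted lines mark 2-fold; macrophage and most ciliated genes sit at the upper right, above both sorted libraries, endothelial genes at the upper left, T cell genes at the lower right and ribosomal protein genes slightly below the origin.

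The read minimum was set in the unsorted library, which favours genes that are high there. Among the 1919 genes above both, 318 had 3 reads or fewer in the Lamp1-enriched library, 738 in the Lamp1-depleted library and 294 in both. A further 2267 genes had under 10 reads in the unsorted library but 10 or more in a sorted BLM library, and 430 of these lay at least 2-fold below both. The counts on either side are therefore not comparable. Of 10539 protein-coding genes with at least 200 reads in the unsorted library, 628 lay at least 2-fold, 231 at least 4-fold and 43 at least 8-fold above both, under a minimum that again sat in the unsorted library alone. With at least 200 reads in every BLM library, a minimum chosen after seeing the data, 303 of 7927 protein-coding genes lay at least 2-fold, 90 at least 4-fold and 16 at least 8-fold above both, while 9 lay at least 2-fold and 0 at least 4-fold below both.

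Of the 45 lists, that of alveolar macrophages had the largest share of members at least 2-fold above both. Of 15 genes on the list, all tested, 14 lay at least 2-fold above both, against 9.35% of all genes tested, and the other, the channel-interacting protein gene Kcnip4, lay above both by less, with median log2 ratios of 3.02 and 3.56 over Lamp1-enriched and Lamp1-depleted cells (3.003 and 3.19 with members at 0 set at a floor of 3 reads). Their summed level, taken for each list over all its members, was 4577 unsorted, 466 Lamp1-depleted and 626 Lamp1-enriched, and Fabp1, a fatty acid binding protein, was the only member at 0 in the sorted libraries, with 16 unsorted reads. Chil3, a chitinase-like protein secreted by alveolar macrophages and the most abundant member, had levels of 1745 unsorted, 141 Lamp1-depleted and 196 Lamp1-enriched. It was high in the unsorted library and low in both sorted ones, with log2 ratios of 3.16 (3.13 to 3.19) over Lamp1-enriched and 3.63 (3.57 to 3.68) over Lamp1-depleted. Levels of Itgax, the integrin chain CD11c, were 802 unsorted, 99.5 Lamp1-depleted and 88.7 Lamp1-enriched, with ratios of 3.18 and 3.01 in the same order. Siglecf, a sialic acid receptor that defines alveolar macrophages in mice, was measured at 32.2 unsorted, 3.50 Lamp1-depleted and 4.18 Lamp1-enriched, with ratios of 2.94 and 3.19. For Plet1, a surface protein of these cells, the levels were 193 unsorted, 11.9 Lamp1-depleted and 20.2 Lamp1-enriched, and for Marco, a scavenger receptor, 12.6 unsorted, 0.615 Lamp1-depleted and 1.54 Lamp1-enriched. Apart from Fabp1, the list was detected in both sorted libraries. In bulk RNA, fewer cells of a type and less RNA per cell cannot be told apart, and this holds for every list described here. Whether the sort gates, the staining or the dead-cell dye took part in these differences was not tested.

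A second macrophage list, of genes known from the macrophages that accumulate in scarred lung, also lay above both. Of 12 genes, 11 were tested and 10 lay at least 2-fold above both, against 9.35% of all genes tested. The medians were 2.72 and 2.83. The apolipoprotein gene Apoc2 had under 10 reads in each BLM library and 0 in the Lamp1-enriched one. The summed level was 6096 unsorted, 572 Lamp1-depleted and 1050.1 Lamp1-enriched. Spp1, which encodes the secreted matrix protein osteopontin and was the most abundant member, had levels of 3504 unsorted, 248 Lamp1-depleted and 485 Lamp1-enriched, with log2 ratios of 2.85 (2.83 to 2.87) over Lamp1-enriched and 3.82 (3.78 to 3.86) over Lamp1-depleted. The levels of Gpnmb, a glycoprotein of lysosomes and the cell surface, were 483 unsorted, 40.9 Lamp1-depleted and 54.6 Lamp1-enriched. Those of Mmp12, the macrophage elastase, were 412 unsorted, 22.7 Lamp1-depleted and 50.9 Lamp1-enriched. Trem2, a lipid-sensing receptor, was measured at 79.4 unsorted, 13.9 Lamp1-depleted and 9.76 Lamp1-enriched. In each of these the unsorted level was the highest, and the Lamp1-depleted level was the lowest except for Trem2. Cd9, a tetraspanin also made by endothelial cells and platelets, lay above both by less than 2-fold, at 283 unsorted, 39.6 Lamp1-depleted and 191 Lamp1-enriched.

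The promoters of Mmp12 and Spp1 are shown because, among the promoters matched for both lists and for the 15 genes furthest above both, theirs hold the core motif of PU.1, the factor that drives macrophage genes. RefSeq promoters run from 250 bases before to 50 after the start of transcription (GRCm38.p6), and capitals mark GAGGAAGT or its reverse complement ACTTCCTC. The Mmp12 window lies at chr9:7344147-7344446 and the Spp1 window at chr5:104434861-104435160, both on the plus strand.
Mmp12: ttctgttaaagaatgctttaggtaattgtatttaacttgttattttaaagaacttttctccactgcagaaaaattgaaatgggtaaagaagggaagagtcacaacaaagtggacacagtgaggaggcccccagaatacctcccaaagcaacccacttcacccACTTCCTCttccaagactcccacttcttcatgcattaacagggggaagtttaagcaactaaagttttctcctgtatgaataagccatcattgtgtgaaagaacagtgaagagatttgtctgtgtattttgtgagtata
Spp1: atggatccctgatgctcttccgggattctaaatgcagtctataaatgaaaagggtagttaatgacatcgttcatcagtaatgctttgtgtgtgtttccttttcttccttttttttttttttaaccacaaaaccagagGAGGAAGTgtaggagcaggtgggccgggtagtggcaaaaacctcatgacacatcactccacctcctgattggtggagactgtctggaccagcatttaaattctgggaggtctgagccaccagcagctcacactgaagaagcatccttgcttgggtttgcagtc
The motif begins at position -88 in Mmp12, on the minus strand, and at -113 in Spp1, on the plus strand. It was found in 3.20% of all 32851 promoters and in 5.95% of 655 promoters of genes at least 2-fold above both with 200 or more reads. The share was 2.97% for genes above by less and 3.23% among 6382 promoters of genes between. Among all genes tested with 200 or more reads it was 3.34%. None of the 13 promoters matched for the alveolar macrophage list held these letters. They stood in 4 of 15 promoters matched for the monocyte and interstitial macrophage list. For the lysosome list they stood in 3 of 27, and for the pan-endothelial list, whose genes all lay between, in 1 of 10. The AP-1 motif TGANTCA stood in 10.7% of promoters of genes at least 2-fold above both, 5.34% of those above by less, 5.14% of those between and 7.81% of all promoters. These classes again held genes with 200 or more reads, and among all genes tested at that depth the AP-1 share was 5.275%. TCACGTG, the core of the element bound by the lysosomal regulator TFEB, stood in 8 of 27 promoters matched for the lysosome list and in 3.77% of all promoters. Its share was 5.34% among genes at least 2-fold above both, 8.36% among those above by less, 5.48% among genes between and 6.05% among all genes tested with 200 or more reads. Both strands were searched, and a match is a description of the sequence alone.

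Genes of monocytes and interstitial macrophages were divided. Of 16 genes, 11 lay at least 2-fold above both, against 9.35% of all genes tested, 1 above both by less and 4 between. The medians were 2.26 and 1.77, with a summed level of 2000.3 unsorted, 607 Lamp1-depleted and 309.6 Lamp1-enriched. Mrc1, the mannose receptor and most abundant member, had levels of 519 unsorted, 26.8 Lamp1-depleted and 59.4 Lamp1-enriched. C1qa and C1qb, subunits of complement C1q made by mature macrophages, had log2 ratios of 2.62 and 3.17 and of 2.56 and 2.79. Adgre1, the macrophage marker F4/80, had ratios of 2.85 and 2.10 and Csf1r, the receptor that sustains macrophages, of 2.77 and 1.45. The members between were Ly6c2, Cx3cr1, Ms4a6c and F13a1. Ly6c2, the classical monocyte antigen, was highest in Lamp1-depleted cells, at 3.65 unsorted, 19.03 Lamp1-depleted and 3.06 Lamp1-enriched. Cx3cr1, the fractalkine receptor, was measured at 31.3 unsorted, 33.2 Lamp1-depleted and 9.10 Lamp1-enriched, close to its Lamp1-depleted level.

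Other leukocyte lists lay partly inside the range, in shares that for some were near the 55.2% of all genes tested. Of all genes tested, 9.35% lay at least 2-fold above both. Ptprc, which encodes the leukocyte antigen Cd45, had levels of 866 unsorted, 1267 Lamp1-depleted and 173 Lamp1-enriched, between the sorted libraries. Of 11 genes on the general leukocyte list, not all of which are found in every kind of leukocyte, 2 lay at least 2-fold above both. These were Itgb2 and Fcer1g (4 genes with total counts only). Of the 11 genes, 6 lay between, with medians of 2.32 and -0.55 and a summed level of 3939 unsorted, 3667 Lamp1-depleted and 668 Lamp1-enriched. Itgb2, an integrin chain, was the most abundant of them, at 1063 unsorted, 331 Lamp1-depleted and 129.9 Lamp1-enriched. Of 13 dendritic cell genes, 4 lay at least 2-fold above both and 8 between, with medians of 1.94 and 1.09 and a summed level of 355 unsorted, 388 Lamp1-depleted and 300.1 Lamp1-enriched, and Irf8, a transcription factor, as the most abundant; with total counts only 5 lay between. Ccl22, a chemokine, had ratios of 2.06 and 2.25, whereas Ccr7, the receptor of migrating dendritic cells and naive lymphocytes, had ratios of 1.63 and -2.02. The MHC class II list had 0 of 7 members at least 2-fold above both (1 with total counts only), with medians of 0.97 and 0.068 and a summed level of 3676 unsorted, 3391 Lamp1-depleted and 1901 Lamp1-enriched; the second median was -0.079 with DESeq2 size factors. Cd74, the invariant chain and the most abundant of them, was measured at 1818 unsorted, 1396 Lamp1-depleted and 832 Lamp1-enriched. Of 12 neutrophil genes tested, 8 lay between (7 with total counts only), with medians of 1.10 and -0.999 and a summed level of 250.2 unsorted, 465 Lamp1-depleted and 93.1 Lamp1-enriched; Csf3r, the G-CSF receptor, was its most abundant gene and Elane, neutrophil elastase, was at 0 in the unsorted and Lamp1-enriched libraries. Only 2 of 11 mast cell, basophil and eosinophil genes reached 10 reads in the unsorted library, the carboxypeptidase gene Cpa3 and the Fc receptor gene Ms4a2. All 11 members had a summed level of 1.67 unsorted, 2.51 Lamp1-depleted and 0.936 Lamp1-enriched, of which the chymase gene Cma1, with 29 reads, made up the larger part in the Lamp1-depleted library, and the granule protease gene Mcpt8 was at 0 in all BLM libraries.

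Lysosomal genes lay above both sorted libraries almost throughout. Of 35 genes, 20 lay at least 2-fold above both, against 9.35% of all genes tested, and 14 above both by less. The remaining gene, the calcium channel gene Mcoln1, lay between, and the list medians were 1.52 and 1.95. The summed level was 18959 unsorted, 3536 Lamp1-depleted and 4879.8 Lamp1-enriched, which came to 1.88% of the unsorted library. Psap, which encodes the precursor of the saposins that help break down sphingolipids, was the most abundant, at 5278 unsorted, 882 Lamp1-depleted and 931 Lamp1-enriched, with log2 ratios of 2.502 (2.49 to 2.52) over Lamp1-enriched and 2.58 (2.56 to 2.60) over Lamp1-depleted. Ctsd, an aspartic protease, was measured at 2733 unsorted, 286 Lamp1-depleted and 449.7 Lamp1-enriched. Ctss and Ctsk, cysteine proteases of macrophages, had ratios of 3.05 and 3.12 and of 3.20 and 3.70. Lipa, which hydrolyses cholesterol esters in lysosomes, had ratios of 2.09 and 3.46. Lamp1 (chr8:13159161-13175338 on the plus strand of GRCm38) was measured at 501 unsorted, 111 Lamp1-depleted and 378 Lamp1-enriched, so that its messenger RNA was highest in the unsorted library, by a log2 ratio of 0.41 over Lamp1-enriched cells. Lamp2, its paralogue in the same membrane, had levels of 476 unsorted, 123 Lamp1-depleted and 344 Lamp1-enriched. In sham, Lamp1 was highest in Lamp1-enriched cells, at 319 unsorted, 146 Lamp1-depleted and 491 Lamp1-enriched. Sham levels of Lamp2 were 266 unsorted, 174 Lamp1-depleted and 286 Lamp1-enriched. The list shares Cd63 and Ctsl with the scar-associated list and Atp6v0d2 with the alveolar macrophage list. In sham libraries 2 of 35 genes lay at least 2-fold above both and the medians were -0.093 and -0.21, the first of which was 0.13 with total counts only; whether the treatments differ was not tested.

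Cholesterol synthesis genes followed a like order at smaller ratios. Of 20 genes, 8 lay at least 2-fold above both, against 9.35% of all genes tested, and 8 above both by less. The medians were 1.10 and 1.36. In sham 0 genes lay at least 2-fold above both and the medians were -0.11 and -0.20, the first of which was 0.12 with total counts only. The summed level was 1263 unsorted, 635 Lamp1-depleted and 698 Lamp1-enriched, with Srebf2, the factor that switches on the pathway, as the most abundant member and itself between the sorted libraries. Sqle, squalene epoxidase, had levels of 59.7 unsorted, 18.7 Lamp1-depleted and 20.1 Lamp1-enriched, and Insig1, which holds the pathway back when sterols are plentiful, of 90.5 unsorted, 35.98 Lamp1-depleted and 38.8 Lamp1-enriched. Both were highest in unsorted cells and nearly equal in the sorted libraries.

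Of 25 cytokines and chemokines, 16 lay at least 2-fold above both, against 9.35% of all genes tested, and 7 above both by less. The medians were 2.35 and 2.17, with a summed level of 2955 unsorted, 906 Lamp1-depleted and 461 Lamp1-enriched. With Ccl8, a chemokine for monocytes with no reads in the Lamp1-depleted library, set at the floor, the medians were 2.35 and 2.03. Ccl6, a macrophage chemokine and the most abundant of them, was measured at 1286 unsorted, 153 Lamp1-depleted and 171 Lamp1-enriched. Il1a, an alarmin of the interleukin 1 family, had ratios of 2.85 and 3.55, and Il1rn, the antagonist of its receptor, of 3.08 and 2.17. Cxcl1, a neutrophil attractant, had ratios of 3.07 and 4.81. Il1b, the interleukin 1 beta gene, lay above both by less than 2-fold, at 541 unsorted, 455 Lamp1-depleted and 101 Lamp1-enriched. Ccl4 and Ccl5, chemokines made by lymphocytes among other cells, were the members between.

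Ciliated cell genes also lay above both. Of 16 genes, 12 lay at least 2-fold above both, against 9.35% of all genes tested, and 3 between. The medians were 3.05 and 2.17, with a summed level of 189 unsorted, 135 Lamp1-depleted and 69.6 Lamp1-enriched. Cfap43, a protein of the ciliary axoneme and the most abundant, lay between at 41.3 unsorted, 82.6 Lamp1-depleted and 27.8 Lamp1-enriched, and made up a large part of the Lamp1-depleted and Lamp1-enriched sums. Foxj1, the factor that turns on motile cilia, had levels of 10.7 unsorted, 1.70 Lamp1-depleted and 1.30 Lamp1-enriched. Dnah5, a dynein heavy chain of the ciliary arm, was measured at 24.3 unsorted, 2.60 Lamp1-depleted and 0.972 Lamp1-enriched, with log2 ratios of 4.63 (4.24 to 5.07) over Lamp1-enriched and 3.21 (2.83 to 3.64) over Lamp1-depleted. Tekt1 and Tekt4, structural proteins of cilia, were at 0 in the Lamp1-depleted library, and with both at the floor the medians were 3.05 and 2.15. Of 9 epithelial genes, 5 lay at least 2-fold above both, with medians of 1.42 and 2.06 and a summed level of 183 unsorted, 44.4 Lamp1-depleted and 142 Lamp1-enriched. Cdh1, the epithelial cadherin, was measured at 71.8 unsorted, 15.95 Lamp1-depleted and 25.6 Lamp1-enriched and Epcam, an epithelial adhesion molecule, at 7.76 unsorted, 2.60 Lamp1-depleted and 2.77 Lamp1-enriched. The unsorted level of Cldn18, a tight junction protein of the alveolus and the most abundant of the list, lay between, at 73.6 unsorted, 19.2 Lamp1-depleted and 96.8 Lamp1-enriched.

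Alveolar epithelial genes lay nearer the sorted range. Of 14 alveolar type 2 genes, 0 lay at least 2-fold above both and 10 above both by less, with medians of 0.17 and 1.87 and a summed level of 558 unsorted, 301 Lamp1-depleted and 489.8 Lamp1-enriched, led by the lipid transporter gene Abca3. Sftpc, surfactant protein C, was measured at 98.9 unsorted, 22.9 Lamp1-depleted and 104 Lamp1-enriched. Of 9 alveolar type 1 genes, 7 lay between, with medians of -0.48 and 1.43 and a summed level of 819 unsorted, 181 Lamp1-depleted and 1668 Lamp1-enriched, and Pdpn, a mucin-like protein that macrophages can also make, was the member at least 2-fold above both, at 110.1 unsorted, 8.76 Lamp1-depleted and 23.2 Lamp1-enriched. Clic5, the most abundant, is also made by endothelial cells. All 5 genes of the transitional epithelial list lay above both, 2 of them at least 2-fold, the growth factor gene Areg, its most abundant member, and the keratin gene Krt19, with a summed level of 51.2 unsorted, 17.9 Lamp1-depleted and 23.2 Lamp1-enriched and Sprr1a at 0 in the Lamp1-depleted library. Of 8 airway secretory genes tested, 1, the cytochrome P450 gene Cyp2f2, lay at least 2-fold above both, near the 9.35% of all genes tested, or 3 with total counts only, with a summed level of 114 unsorted, 61.8 Lamp1-depleted and 43.4 Lamp1-enriched, and Scgb1a1, the secretoglobin of club cells and the most abundant, was measured at 69.9 unsorted, 47.5 Lamp1-depleted and 23.9 Lamp1-enriched. The basal cell list rested on few reads, with 1 of 6 members at least 2-fold above both, a summed level of 3.62 unsorted, 3.98 Lamp1-depleted and 3.17 Lamp1-enriched, Trp63 as the most abundant and Krt17 at 0 in the Lamp1-depleted library (medians 0.36 and 1.25, or 0.36 and 1.07 with the floor).

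Mesothelial genes, from the cells that line the pleura, lay above both for all 8 members, 5 of them at least 2-fold. Of all genes tested, 9.35% lay at least 2-fold above both. The mesothelial medians were 1.45 and 3.09, with a summed level of 62.9 unsorted, 8.52 Lamp1-depleted and 25.3 Lamp1-enriched. Msln, the surface protein mesothelin, was measured at 9.46 unsorted, 1.61 Lamp1-depleted and 3.58 Lamp1-enriched and Muc16, a mucin and the most abundant member, at 20.1 unsorted, 1.99 Lamp1-depleted and 7.10 Lamp1-enriched. Both were highest unsorted and lowest in Lamp1-depleted cells. Of 9 erythroid genes tested, 4 lay at least 2-fold above both and 4 above both by less. With DESeq2 size factors 2 lay at least 2-fold above both, and this count ran from 0 to 5 over the alternatives that kept 2-fold. Their summed level was 83.2 unsorted, 46.7 Lamp1-depleted and 32.4 Lamp1-enriched. The alpha globin gene Hba-a1 was the most abundant and its near-identical copy Hba-a2 can share its reads. The suspension had been treated with a buffer that lyses red cells. Of 7 lymphatic endothelial genes tested, 2 lay at least 2-fold above both, the transcription factor gene Prox1 and Reln, which encodes reelin, with a summed level of 193 unsorted, 34.6 Lamp1-depleted and 403 Lamp1-enriched and the chemokine gene Ccl21a at 0 in all BLM libraries, while Lyve1, a hyaluronan receptor and the most abundant, lay between at 83.3 unsorted, 10.5 Lamp1-depleted and 292 Lamp1-enriched.

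**Figure D2:**
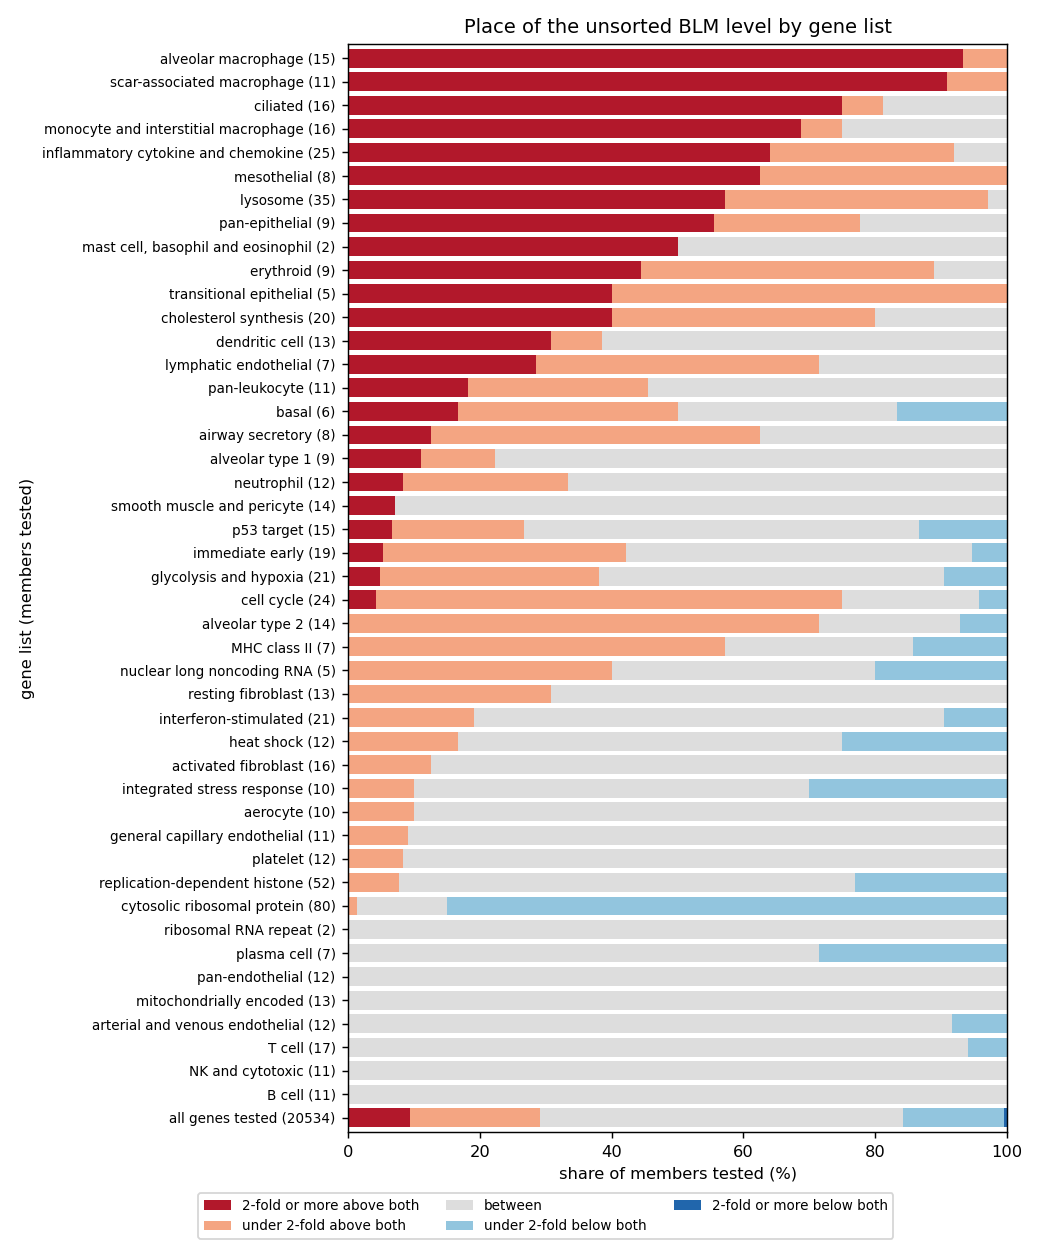
Bars show, for each list with the number of members tested in brackets, the share of members (%) whose BLM unsorted level lay above both, between or below both sorted libraries, with the same shares for all genes tested at the bottom. The alveolar macrophage list has 14 of 15 members at least 2-fold above both, whereas all 12 pan-endothelial members lie between.

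Most endothelial and lymphocyte genes lay between the sorted libraries, in opposite directions, against 55.2% of all genes tested that lay between. All 12 genes of the pan-endothelial list lay between, with medians of -1.43 and 2.19 and a summed level of 3257 unsorted, 899.8 Lamp1-depleted and 8851 Lamp1-enriched. Cdh5, the endothelial cadherin and its most abundant member, was measured at 976 unsorted, 211 Lamp1-depleted and 2766 Lamp1-enriched, and Pecam1, the adhesion molecule CD31, at 746 unsorted, 340.1 Lamp1-depleted and 2009 Lamp1-enriched. These were highest in Lamp1-enriched cells and lowest in Lamp1-depleted cells. The capillary, aerocyte and vessel lists did so apart from Hilpda, Car4 and Sele, with 10 of 11, 9 of 10 and 11 of 12 genes between and summed levels of 4499 unsorted, 754 Lamp1-depleted and 14030.3 Lamp1-enriched, of 1213 unsorted, 321 Lamp1-depleted and 2273 Lamp1-enriched and of 1287 unsorted, 256 Lamp1-depleted and 4475 Lamp1-enriched. Their most abundant genes were Ptprb, a phosphatase, Kdr, the main VEGF receptor, and Vwf, von Willebrand factor. Of 12 platelet genes, 11 lay between, led by the chemokine gene Ppbp, and the receptor gene Clec1b lay above both by less than 2-fold, with Treml1 at 0 in the Lamp1-depleted library and a summed level of 95.9 unsorted, 18.04 Lamp1-depleted and 208 Lamp1-enriched.

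T cell genes lay between for 16 of 17 members, with medians of 1.49 and -3.09 and a summed level of 159 unsorted, 1012 Lamp1-depleted and 69.04 Lamp1-enriched; Il7r, the interleukin 7 receptor, was the most abundant and Tcf7, a transcription factor, lay below both by less than 2-fold. Cd3e, a chain of the T cell receptor complex, was measured at 5.65 unsorted, 52.9 Lamp1-depleted and 2.81 Lamp1-enriched. It was highest in Lamp1-depleted cells, and the unsorted level was nearer to the Lamp1-enriched one. B cell genes lay between for 11 of 11, with medians of 1.11 and -3.19 and a summed level of 337 unsorted, 2581 Lamp1-depleted and 125 Lamp1-enriched, and Cd22, an inhibitory receptor, was the most abundant. All 11 genes of NK and cytotoxic cells lay between, with medians of 1.08 and -2.498 and a summed level of 19.2 unsorted, 129 Lamp1-depleted and 8.48 Lamp1-enriched, led by the receptor gene Klrk1. Of 7 plasma cell genes tested, 5 lay between and 2 below both by less than 2-fold, against 55.2% and 15.3% of all genes tested. Their list had a summed level of 22.8 unsorted, 44.1 Lamp1-depleted and 31.4 Lamp1-enriched. Jchain, the joining chain of antibodies, was the most abundant, and Tnfrsf17 was at 0 in all BLM libraries.

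Where a gene lay between, its place in the range was computed as the share of Lamp1-enriched RNA at which a mix of both sorted libraries would give the unsorted level. Among 5262 genes at least 4-fold apart in the sorted libraries, 4487 lay between, with a median share of 0.565 (quartiles 0.371 and 0.804). A suspension made of both fractions alone would give the same share for every gene on library totals, apart from counting error, but TMM scaling can spread the shares. The median was 0.316 for pan-endothelial genes, 0.282 for capillary genes, 0.458 for aerocyte genes and 0.315 for platelet genes. For lymphocytes it was 0.917 in T cell, 0.942 in B cell and 0.904 in NK genes. With total counts only, the medians were 0.320 for pan-endothelial, 0.882 for T cell, 0.918 for B cell and 0.862 for NK genes. At a share above the first of these and below the others, the median gene of each of these lists was lower in unsorted cells than in the mix. At a share below the first, the median pan-endothelial gene was instead higher in unsorted cells than in the mix. The share of Lamp1-enriched RNA in the suspension was not measured. The paper's share of lung cells with surface Lamp1 counts cells rather than RNA. In sham, again with TMM scaling, the medians were 0.619 for pan-endothelial and 0.964 for T cell genes, nearer to each other, whereas the platelet median was 0.274, further from the T cell median than in BLM.

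Most activated fibroblast and smooth muscle genes lay between as well, against 55.2% of all genes tested. Of 16 genes of activated fibroblasts 14 lay between, with medians of -0.28 and 2.38 and a summed level of 1170.1 unsorted, 245 Lamp1-depleted and 1329 Lamp1-enriched; with Cthrc1, a collagen repeat protein at 0 in the Lamp1-depleted library, at the floor the medians were -0.28 and 2.31. Col1a1, a chain of type I collagen and the most abundant, was measured at 415 unsorted, 91.1 Lamp1-depleted and 444 Lamp1-enriched, so that the unsorted and Lamp1-enriched levels were nearly equal. Of 13 genes of resting fibroblasts 9 lay between, with medians of -0.035 and 2.25, a summed level of 326 unsorted, 90.3 Lamp1-depleted and 347 Lamp1-enriched and Limch1, an actin-binding protein, as the most abundant; when the libraries were scaled by totals without the ribosomal RNA repeat 7 lay between, near the share of all genes, and the first median was 0.001. Of 14 smooth muscle and pericyte genes 13 lay between, with a summed level of 197 unsorted, 44.7 Lamp1-depleted and 225 Lamp1-enriched and the calponin gene Cnn1 at 0 in the Lamp1-depleted library, and Cspg4, a proteoglycan and the most abundant, lay at least 2-fold above both at 72.3 unsorted, 7.53 Lamp1-depleted and 15.9 Lamp1-enriched.

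Genes below both mostly lay there by less than 2-fold. The 15 protein-coding genes furthest below, with 200 or more reads in each sorted library, were Plac8, the GTPase genes Gimap1, Gimap9, Gimap5 and Gimap6, the potassium channel gene Kcnq5, the zinc finger gene Zfp39, the receptor-modifying gene Ramp3, Gata3, Atp2a3, the receptor gene Sigirr, Ets1, Jchain, the adaptor gene Grap and the p53-induced gene Trp53i11. Plac8, a cysteine-rich protein of leukocytes and epithelium, had levels of 27.5 unsorted, 70.3 Lamp1-depleted and 75.1 Lamp1-enriched, with log2 ratios of -1.45 (-1.55 to -1.35) over Lamp1-enriched and -1.35 (-1.47 to -1.24) over Lamp1-depleted. The Gimap genes encode GTPases that act in lymphocyte survival, and Gimap6 was measured at 41.8 unsorted, 125 Lamp1-depleted and 84.6 Lamp1-enriched. Of 8 Gimap genes tested, a family picked after its values were seen, 4 lay at least 2-fold and 2 less than 2-fold below both, and 2 lay between. Among all genes tested these shares were 0.443%, 15.3% and 55.2%. The Gimap medians were -1.08 and -1.52, against -0.32 and -1.10 in sham. Over the alternatives, ratios over Lamp1-depleted cells rose to -0.846 for Plac8, -0.827 for Zfp39, -0.76 for Gata3, -0.507 for Atp2a3 and -0.999 for Gimap9. The ratio of Gimap6 over Lamp1-enriched cells rose to -0.981, so that these 2-fold calls depended on the processing. Both ratios of Gimap1, Gimap5, Kcnq5 and Ramp3 stayed at -1 or lower. Ets1, a transcription factor of lymphocytes and endothelium, was measured at 482 unsorted, 961 Lamp1-depleted and 1014 Lamp1-enriched, and Atp2a3, a calcium pump of the endoplasmic reticulum, at 159 unsorted, 321 Lamp1-depleted and 375 Lamp1-enriched. In each of these genes the unsorted level was the lowest. Gata3, a factor of T cells and endothelium, had ratios of -1.07 and -1.27. Trp53i11 stood last of the 15 with a distance of -0.96 outside the range, and the integrin gene Itgb3 followed at -0.95.

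The place of ribosomal protein genes depended on the scaling. Of 80 tested, 68 lay below both by less than 2-fold and 11 between, with medians of -0.49 and -0.53; with total counts only 40 lay below both, 40 lay between and the second median was -0.027. Their summed level was 8458 unsorted, 13198 Lamp1-depleted and 11445 Lamp1-enriched, with Rps3a1 as the most abundant. Many have processed copies elsewhere in the genome that can share their reads. All 13 mitochondrially encoded genes lay between, with a summed level of 80801 unsorted, 114264 Lamp1-depleted and 47321 Lamp1-enriched and medians of 0.63 and -0.35, the second of which was 0.15 with total counts only, where 12 of them lay above both. Between lay also Gm26917 and Gm42418 of the ribosomal RNA repeat, with a summed level of 75583 unsorted, 566116 Lamp1-depleted and 16057 Lamp1-enriched. Malat1, a nuclear RNA, was measured at 14938 unsorted, 29537 Lamp1-depleted and 10389 Lamp1-enriched and made up most of the nuclear noncoding list, whose medians were 0.60 and -0.045, or 0.46 for the second with total counts only. Of 52 replication-dependent histone genes, whose messengers mostly lack a poly(A) tail, 36 lay between and 12 below both by less than 2-fold (5 below with total counts only), with medians of -0.70 and 0.79. Of all genes tested, 55.2% lay between and 15.3% below both by less than 2-fold.

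**Figure D3:**
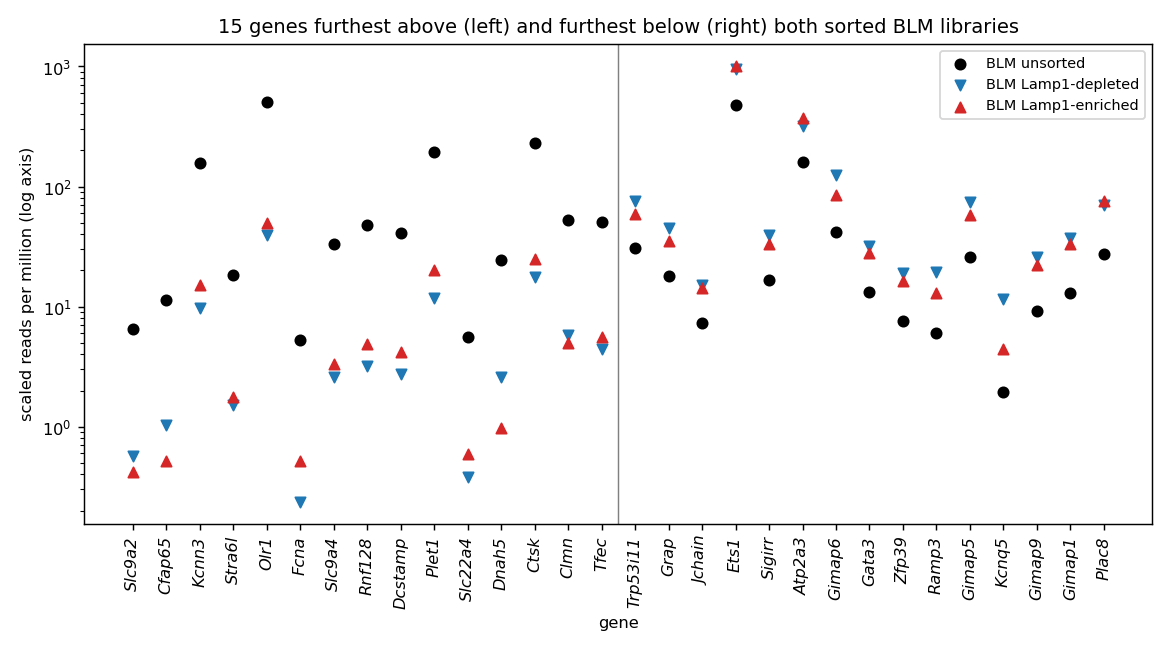
Points are CPM, as scaled reads, on a log axis in the BLM unsorted, Lamp1-depleted and Lamp1-enriched libraries, for the 15 genes furthest above both (left, 200 or more reads in the unsorted library) and the 15 furthest below both (right, 200 or more reads in each sorted library). On the left the unsorted point stands above both sorted points, and on the right below them.

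The 15 protein-coding genes furthest above both, among those with 200 or more reads in the unsorted library, were the sodium-proton exchanger genes Slc9a2 and Slc9a4, Cfap65, Kcnn3, the receptor-like gene Stra6l, Olr1, the ficolin gene Fcna, Rnf128, Dcstamp, Plet1, the cation transporter gene Slc22a4, Dnah5, Ctsk, the membrane protein gene Clmn and Tfec. Several are known from macrophages. Olr1, a receptor for oxidised lipoprotein, had levels of 504 unsorted, 39.1 Lamp1-depleted and 49.4 Lamp1-enriched, with log2 ratios of 3.35 (3.29 to 3.41) over Lamp1-enriched and 3.69 (3.58 to 3.79) over Lamp1-depleted. Kcnn3, a calcium-activated potassium channel, was measured at 158 unsorted, 9.80 Lamp1-depleted and 15.3 Lamp1-enriched. Dcstamp, needed for the fusion of macrophages into giant cells, was measured at 40.8 unsorted, 2.75 Lamp1-depleted and 4.20 Lamp1-enriched, and Tfec, a factor related to TFEB, at 50.9 unsorted, 4.40 Lamp1-depleted and 5.56 Lamp1-enriched. Ctsk, a collagen-degrading protease, had levels of 228 unsorted, 17.6 Lamp1-depleted and 24.8 Lamp1-enriched. Rnf128, a ubiquitin ligase, was measured at 47.5 unsorted, 3.17 Lamp1-depleted and 4.88 Lamp1-enriched. Cfap65 and Dnah5 belong to motile cilia, and Cfap65 had reads of 446, 22 and 28 in the unsorted, Lamp1-depleted and Lamp1-enriched libraries. In each of the 15 genes both sorted levels were far under the unsorted one. Tfec stood last with a distance of 3.19 and the ubiquitin ligase gene Rnf180 followed at 3.18.

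Stress and growth lists spread over the range, and 55.2% of all genes tested lay between. Of 24 cell cycle genes 17 lay above both by less than 2-fold, with medians of 0.31 and 1.33, and Mki67, a marker of dividing cells, was measured at 96.2 unsorted, 43.1 Lamp1-depleted and 58.6 Lamp1-enriched. Of 21 glycolysis and hypoxia genes 11 lay between (9 with total counts only), with medians of 0.23 and 0.89. Of 19 immediate early genes, which dissociation can switch on, 10 lay between and 1 at least 2-fold above both (3 with total counts only), with medians of 0.57 and 0.74; Fos was measured at 1085 unsorted, 651 Lamp1-depleted and 389 Lamp1-enriched. Heat shock genes lay between for 7 of 12 (5 with DESeq2 size factors), integrated stress response genes for 6 of 10, p53 targets for 9 of 15 and interferon-stimulated genes for 15 of 21, with medians of -0.37 and 0.18, of -0.40 and 0.89, of 0.014 and 0.17 and of -0.32 and 0.65; the first p53 target median was -0.039 with total counts only.

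Genes used as senescence markers and as references lay near or inside the sorted range. Cdkn1a, the cell cycle inhibitor p21, was measured at 144 unsorted, 65.7 Lamp1-depleted and 113 Lamp1-enriched, with log2 ratios of 0.34 (0.29 to 0.40) over Lamp1-enriched and 1.13 (1.04 to 1.22) over Lamp1-depleted. Cdkn2a, which encodes p16, had reads of 28, 8 and 33 in the unsorted, Lamp1-depleted and Lamp1-enriched libraries, and both of its intervals held 0, so that no difference was detectable at this depth. Glb1, the lysosomal beta-galactosidase, was measured at 21.5 unsorted, 14.7 Lamp1-depleted and 15.7 Lamp1-enriched. Lmnb1, a lamin of the nuclear envelope, lay between at 46.1 unsorted, 71.4 Lamp1-depleted and 27.6 Lamp1-enriched. Tgfb1, the profibrotic growth factor, was measured at 187 unsorted, 192 Lamp1-depleted and 118 Lamp1-enriched, with log2 ratios of 0.66 (0.61 to 0.70) over Lamp1-enriched and -0.038 (-0.093 to 0.018) over Lamp1-depleted. Its second interval held 0, and with total counts only that ratio was 0.47, so that its place over Lamp1-depleted cells depended on the scaling. Actb and Gapdh, often used as references, lay above both, with ratios of 0.71 and 1.07 and of 0.38 and 0.89, as did Hprt with 0.41 and 1.36.

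In the sham libraries, 1680 of 21842 genes (7.69%) lay at least 2-fold above both, 38 (0.174%) at least 2-fold below both and 11277 (51.6%) between. The genes above both took 1.49% of the sham unsorted reads, and their excess over the higher sorted library came to 1.12%. The treatments shared 473 of these genes, 24.6% of the BLM list and 28.2% of the sham list, and 1 gene at least 2-fold below both, 1.10% and 2.63%. Among genes tested in both treatments, the shared genes above both were 31.9% of 1482 BLM genes and 45.4% of 1042 sham genes. Alveolar macrophage genes lay at least 2-fold above both for 11 of 15 in sham, with medians of 1.93 and 2.17 and a summed level of 747 unsorted, 354 Lamp1-depleted and 252 Lamp1-enriched. Chil3 in sham was measured at 313 unsorted, 76.03 Lamp1-depleted and 79.6 Lamp1-enriched, again highest in unsorted cells. For the scar-associated list, 2 of 11 genes tested in sham lay at least 2-fold above both, with medians of 0.67 and 2.01 and a summed level of 443 unsorted, 142 Lamp1-depleted and 518 Lamp1-enriched. Spp1 in sham was measured at 56.9 unsorted, 7.08 Lamp1-depleted and 53.7 Lamp1-enriched, with nearly equal unsorted and Lamp1-enriched levels. Monocyte and interstitial macrophage genes had sham medians of 1.04 and -0.29, ciliated genes of 0.76 and 1.93 and cytokine genes of 1.83 and 1.19. Mesothelial genes lay at least 2-fold above both for 7 of 8 in sham, against 5 in BLM, with medians of 2.53 and 2.56. Resting fibroblast genes lay at least 2-fold above both for 6 of 13 in sham and for 0 in BLM. With 1 library per group none of these differences between the treatments was tested.

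**Figure D4:**
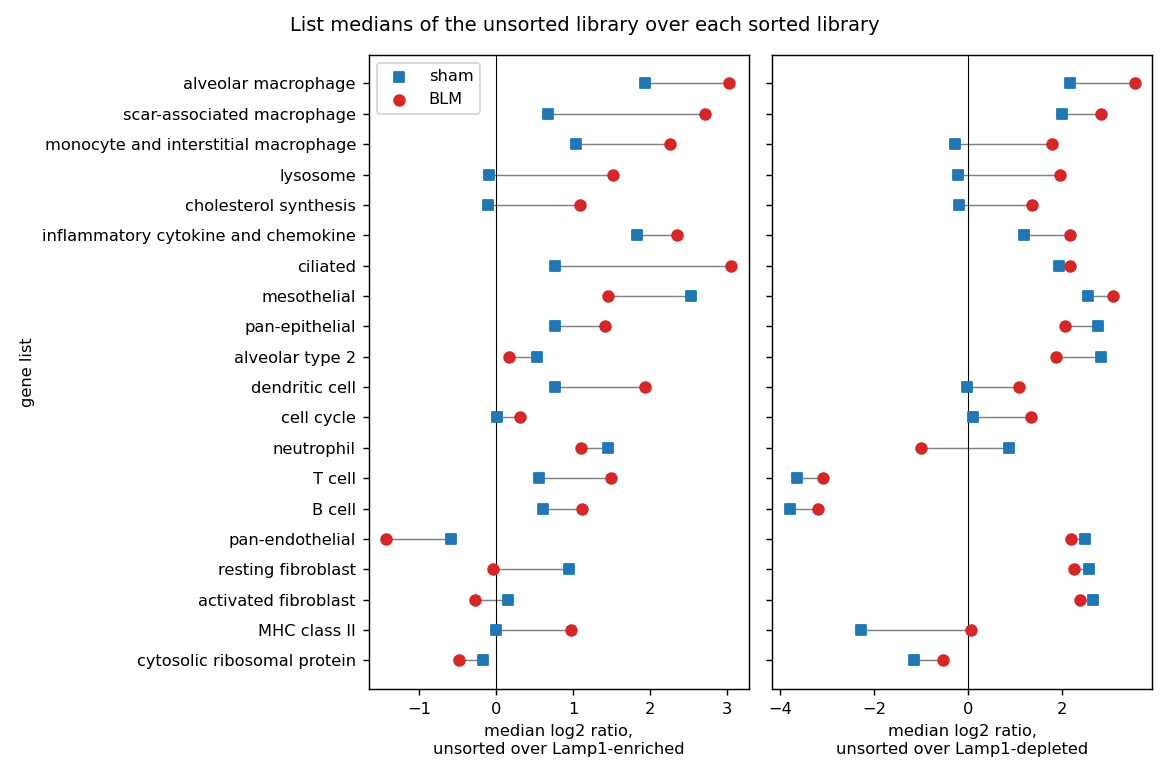
Points are median log2 ratios of unsorted over Lamp1-enriched (left) and over Lamp1-depleted cells (right) for the members tested of 20 gene lists, in BLM and in sham, with a line joining the treatments. The lysosome medians are 1.52 and 1.95 in BLM and -0.093 and -0.21 in sham, where the first was 0.13 with total counts only.

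Genes at least 2-fold above both had a median exon length of 2821 bases and 48.3% GC, against 3573 and 48.8% for genes between and 1576 and 49.8% for genes at least 2-fold below. Their median unsorted reads were 74, 329 and 17, so that these groups differed in depth. With 200 or more unsorted reads, the median lengths were 4127 bases above and 4868 between, and GC was 48.5% and 49.02%. Protein-coding genes made up 69.5% of genes above, 74.01% of those between and 38.5% of those below.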

How the data were processed

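Values are raw read counts per gene as deposited by the authors, whose labels list Trimmomatic 0.36, STAR 2.5.2b, Subread 1.5.2, featureCounts, DESeq2 and the build GRCm38 without the settings. Counts were scaled with TMM factors from all 6 libraries (edgeR 4.0.16, R 4.3.3); the factors were 0.993, 0.699 and 1.03 for BLM unsorted, Lamp1-depleted and Lamp1-enriched cells. Log2 ratios (Python 3.11.15) used a prior of 0.5 reads scaled to library size. Genes needed 10 reads in the unsorted library. Names, lengths and GC came from GENCODE release M21, which held 49056 of 49315 genes. Members and lists (45 lists written from general knowledge) were chosen with earlier results of these data known. Named genes were a preset group of marker, senescence and reference genes, Gm26917 and Gm42418, the 3 members per list with most reads per kilobase, list members at least 2-fold outside the range, and the 15 protein-coding genes furthest above and below both. Exceptions within lists, members at 0, the next gene after each 15 and the Gimap family were picked with their values in view. The classes were tried on simulated data, an equal mix of both sorted BLM libraries in which some well-covered genes were set 4-fold outside the range. Genes set at 2-fold or with few sorted reads were not tried. With 1 library per group, no test was made. Alternatives were other scalings (DESeq2 1.42.0), prior counts, read minimums, folds and thinned counts.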

Additional observations from a re-analysis of the deposited data

Results flagged for a closer look

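Of 90 list medians (45 lists over 2 sorted libraries), 20 had opposite signs in BLM and sham, and the 10 with at least 5 members tested and at least 1 log2 unit apart are given here, a limit chosen after the values were seen. Each rests on 1 library per group, and no difference between the treatments was tested. The median log2 ratio of unsorted over Lamp1-enriched cells was 1.52 in BLM and -0.093 in sham for lysosomal genes and 1.10 in BLM and -0.11 in sham for cholesterol synthesis genes. Both sham values changed sign with the scaling, to 0.13 and 0.12 with total counts only and to 0.14 and 0.13 without the ribosomal RNA repeat, so that the opposite signs depend on it; sham values under other scalings were computed after seeing the data. Over Lamp1-depleted cells it was 1.95 in BLM and -0.21 in sham for lysosomal genes and 1.36 in BLM and -0.20 in sham for cholesterol synthesis genes. For monocyte and interstitial macrophage genes it was 1.77 in BLM and -0.29 in sham, and for dendritic cell genes 1.09 in BLM and -0.020 in sham, where the sham value was 0.030 with total counts only. MHC class II genes had medians of 0.068 in BLM and -2.28 in sham, where the BLM value was -0.079 with DESeq2 size factors and -0.038 without the ribosomal RNA repeat, and neutrophil genes of -0.999 in BLM and 0.88 in sham. The medians were 0.89 in BLM and -0.46 in sham for glycolysis and hypoxia genes and 0.79 in BLM and -1.42 in sham for replication-dependent histone genes. Of 170 named genes tested in both treatments, 12 lay outside the sorted range on opposite sides with all counting intervals off 0, and 4 were at least 1 log2 unit apart. Their log2 distance outside the range was 2.502 in BLM and -0.12 in sham for Psap, 1.22 in BLM and -0.12 in sham for Insig1, 0.71 in BLM and -0.37 in sham for Actb and 0.46 in BLM and -0.58 in sham for Glb1. With total counts only, or without the ribosomal RNA repeat, Psap and Insig1 lay inside the sorted range in sham, and Actb and Glb1 were under 1 log2 unit apart, at 0.66 and -0.15 and at 0.41 and -0.36 with total counts and at 0.75 and -0.14 and at 0.45 and -0.35 without the repeat, BLM before sham.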

How the results depend on the processing

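Of 93 recomputed values, 68 stayed within 1.5 times the count or within the interval of the median. These were the class counts, the number of lists with at least 50% of members tested above both, and the median share. Of 4290 recomputed values of single genes and lists, 3648 stayed within their limits and 642 moved. Of 348 ratios of named genes, 22 changed sign under a scaling, none of them 2-fold or more (largest size 0.43), and list medians near 0 also changed sign where the text gives it. Not counted among them was Hist1h4f over Lamp1-enriched cells, whose ratio rounded to 0 and ran from -0.053 to 0.035. Total counts only shifted the median of all ratios over Lamp1-depleted cells by 0.50, DESeq2 size factors by -0.14 and totals without the ribosomal RNA repeat by -0.10. With total counts only, 47 genes lay at least 2-fold below both, and beyond counting error 671 lay below both and 4249 above. The median share was then 0.534. That share was 0.589 with DESeq2 size factors, 0.585 without the ribosomal RNA repeat, 0.528 with 50 unsorted reads, 0.595 with 1 and 0.522 among protein-coding genes. Other read minimums change which genes are tested. Genes at least 2-fold above both numbered 883 with 10 reads in every BLM library, 1092 with 50 unsorted reads and 5010 with 1. Genes at least 2-fold below numbered 521 with 10 reads in any BLM library, 18 with 50 unsorted reads, 528 with 1 and 35 among protein-coding genes. At 1.5-fold, 2880 lay above and 441 below, and at 4-fold 759 above and 1 below, with 2 lists in place of 9 having at least 50% of their members tested above both. With the median log2 ratio of all genes set to 0, an alternative chosen after seeing the data, 170 genes lay at least 2-fold below. Beyond counting error 2554 then lay below and 2721 above, and the median share was 0.640. Raising sorted counts under 3 to 3, also chosen after seeing the data, left 1774 genes at least 2-fold above. The cause of shifts between scalings was not tested. Over the alternatives that kept 2-fold, the number of genes above both ran from 12 to 14 for alveolar macrophage, 9 to 12 for monocyte and interstitial macrophage, 17 to 20 for lysosomal, 13 to 18 for cytokine and chemokine, 8 to 12 for ciliated, 4 to 9 for cholesterol synthesis, 4 to 6 for mesothelial, 3 to 5 for pan-epithelial and 0 to 5 for erythroid genes, and was 10 throughout for scar-associated macrophage genes. At 4-fold it was 0 for the cholesterol synthesis, mesothelial, pan-epithelial and erythroid lists. Among protein-coding genes with 200 reads in every BLM library, chosen after seeing the data, 303 lay at least 2-fold above and 9 below. No paired analysis was possible because each group has 1 library.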
